A study of Mus musculus with 24 samples.

Results

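The 10 genes described here, Btg4, Cnot1, Cnot6, Cnot6l, Cnot7, Cnot8, Tob1, Tob2, Zfp36l1 and Zfp36l2, encode parts of the machinery that shortens poly(A) tails and clears maternal RNA. They were chosen by name as deadenylation and maternal RNA decay factors, and the N6-methyladenosine (m6A) peaks lying over their gene bodies were collected. They are 10 of 21887 protein-coding genes in the annotation used, of which 9903 had a peak in at least 1 library. m6A is the methylation of internal adenosines in RNA, and it was mapped with picoMeRIP-seq, in which sheared, rRNA-depleted RNA is pulled down with an m6A antibody and sequenced beside its input.

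The study holds 24 samples of C57BL/6N mice, a wild-type inbred strain, and the 12 immunoprecipitated libraries are used here (6 stages, 2 biological replicates each), while the 12 inputs were not analysed here. All oocytes and embryos came from 8-week-old females primed with pregnant mare serum gonadotropin (PMSG). Germinal vesicle (GV) oocytes, of the surrounded-nucleolus type and held in IBMX, were taken 48 h after PMSG. All other stages also received human chorionic gonadotropin (hCG) and were collected later: MII oocytes 14 h after hCG, zygotes at 27 to 28 h, 2-cell embryos at 39 to 43 h, 8-cell embryos at 68 to 70 h and blastocysts at 92 to 94 h. The embryos came from matings with 8-week-old males. Each library is a pool of 100 oocytes or embryos, except 49 for both GV pools, 110 for 1 MII pool and 51 for 1 pool at the 8-cell stage, so single oocytes and single embryos cannot be told apart. For tests, 2-cell, 8-cell and blastocyst libraries form the embryonic phase (6 libraries) and GV oocyte, MII oocyte and zygote libraries the maternal phase (6 libraries).

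Growing oocytes store messenger RNAs, and much of this store is removed during meiotic maturation and around the activation of the embryonic genome. Removal starts with shortening of the poly(A) tail, largely by the CCR4-NOT complex, which carries 2 kinds of catalytic subunit on a large scaffold. Adaptors and RNA-binding proteins bring the complex to its targets, and m6A is itself known as a mark that can recruit decay factors through reader proteins.

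The sequence just inside the gene start is shown for Tob2 and Zfp36l1, whose peaks reach the first 50 bases after the annotated start of the gene. Each line gives bases 21 to 50 after the annotated start on the transcript strand, from RefSeq GRCm38.p6, at chr15:81858277-81858306 (minus strand) for Tob2 and chr12:80112964-80112993 (minus strand) for Zfp36l1. Capitals mark a match to the word GGACT or to its variants (the word GAACT, the word AGACT or the word AAACT), forms of the core sequence in which m6A is placed. Other forms of the core were not searched, so bases in lower case may hold one.
Tob2: tgctgagggtgAAACTtttcattgactttg
Zfp36l1: gggcgccgggagcaggcgtgtgGGACTcct
The Tob2 word (bases 81858291 to 81858295) was covered by the peak in 8 of 8 libraries with a peak there. It lies close to the outer end of most of these peaks and away from most of their summits. Of the best summits by q-value, 7 of 8 lay within 25 bp of 81858188, and that of the first GV oocyte library at 81858283. The Zfp36l1 word (bases 80112967 to 80112971) was covered by 1 peak, in 1 blastocyst library. The first 50 bases after the start, a longer stretch than the 30 bases shown, were searched in 32851 RefSeq windows. At least 1 of the 4 words was held on the transcript strand by 17.8% of them, and on either strand by 32.6%. A match is therefore a description and not a mapped site. The words do not overlap each other.

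Peak lists held 6914 to 11959 peaks, and read depth is unknown because no read counts are given. Where no peak was called, RNA may lack m6A, be scarce or fall short of detection, and in bulk libraries fewer cells of a type and less RNA per cell cannot be told apart. Of 6 oocyte markers, 0 to 2 were marked in embryonic libraries and 3 (Gdf9, Bmp15, Mos) in each maternal library, with Zp1, Zp2 and Zp3 without a peak anywhere. Of 7 blastocyst markers, 4 to 5 were marked in 8-cell and blastocyst libraries and 0 in 2-cell libraries, against 1 to 2 in maternal libraries, with Krt8 and Krt18 at 0 throughout. Of 5 markers of the 2-cell embryo, 3 were marked in each 2-cell library, 2 and 3 in the 8-cell libraries and 0 in blastocysts, against 0 to 1 in maternal libraries, where Zscan4d was marked in 3. Zscan4c and Zscan4f had no peak. Of 10 cumulus and granulosa markers, none was marked in an embryonic library and 0 to 3 in maternal libraries (Kitl in 5, Inhba in 4, Cyp19a1 in 2, Has2 in 1). Amh, Fshr, Foxl2, Ptx3, Tnfaip6 and Lhcgr had no peak. The part of these markers in the maternal-phase marks below was not tested.

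All 10 genes had a peak in at least 1 library, and together they held 84 peaks of 200 to 731 bp. They were marked in 29 of 60 gene-library pairs in the embryonic phase (48.3%) and 26 of 60 in the maternal phase (43.3%), close to the 45.6% and 43.3% over all 9903 marked genes. No member was marked in all 12 libraries, as 828 genes (8.36%) were. The median difference in marked libraries, embryonic minus maternal, was 0.5 over the 10 members and 0 over all marked genes.

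**Figure D1:**
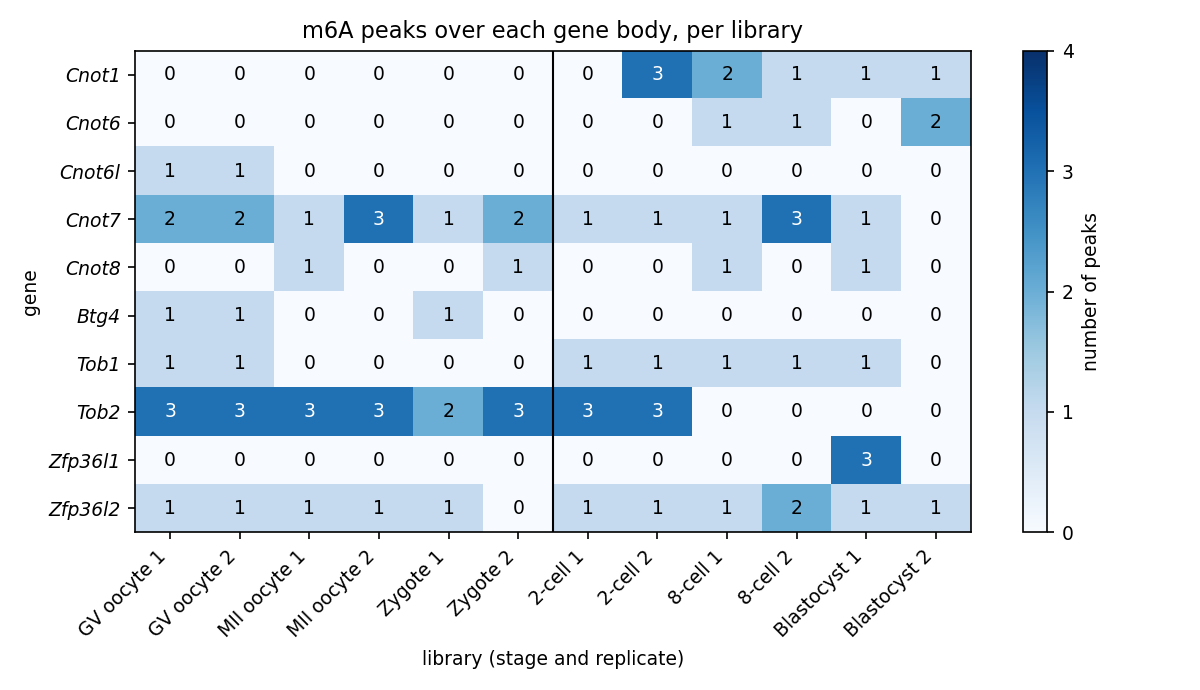
Number of m6A peaks over each gene body (rows) in each of the 12 libraries (columns, in developmental order); the vertical line separates the maternal phase (left) from the embryonic phase (right). Cnot1 and Cnot6 have peaks right of the line, Btg4 and Cnot6l left of it, and Tob2 has 2 or 3 peaks in every library up to the 2-cell stage and 0 after it.

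Cnot1, the scaffold of the CCR4-NOT complex, was the 1 member called by the test of marks. It had 0, 3, 2, 1, 1 and 1 peaks in the embryonic libraries (2-cell, 8-cell and blastocyst, replicates 1 and 2 of each) and 0 in all 6 maternal libraries. Only the first 2-cell library overlapped the maternal range. Cnot1 was thus marked in 5 of 6 embryonic and 0 of 6 maternal libraries (two-sided Fisher's exact test, p = 0.0152, Benjamini-Hochberg adjusted p = 0.0306). Of 2310 testable genes, 21.6% were called higher and 28.0% lower in the embryonic phase. Only genes marked in 5 to 7 libraries can pass this test, which left Cnot1 and Tob1 among the members, so 1 of 2 testable members stands beside a background of 49.6% called in either direction. In peak number Cnot1 averaged 1.33 ± 1.03 in the embryonic phase and 0 in the maternal phase (SD, n = 6 each; exact permutation p = 0.0152, adjusted p = 0.0723), which missed the threshold of 0.05. The call of marks was lost when each library was cut to the same number of peaks, or kept only peaks at or above its median fold, or only peaks that touch no other gene (4 of 6 embryonic and 0 of 6 maternal libraries in each case). With only peaks of a score no lower than the overall median, Cnot1 was marked in 1 embryonic and 0 maternal libraries. With the gene extended by 2000 bp it was marked in 5 embryonic and 4 maternal libraries.

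The Cnot1 peaks did not fall at one place. The gene spans 89183 bp at chromosome 8, 95718931 to 95808113, and its 8 peaks formed 7 regions, 6 of them seen in 1 library. The second 2-cell library had peaks at 95786215-95786415, 95788875-95789074 and 95802200-95802457, the last with a fold enrichment of 10.4 (the authors' value of immunoprecipitate over background, used here only to describe a peak). The 8-cell libraries had peaks at 95786635-95786834 and 95786947-95787147, near each other but not overlapping. The region shared by 2 libraries, 95807617-95808033, lay 288 bp from the upper gene end in an 8-cell and a blastocyst library. It also lies in the long noncoding RNA 4930513N10Rik (95806830 to 95821728), and since the peak lists give no strand the source of the signal cannot be told apart. Replicates of a stage that both marked a member had overlapping peaks in 20 of 22 cases (90.9%, against 95.1% of 21313 such cases over all genes), and Cnot1 at the 8-cell and blastocyst stages made up the other 2. Ranked by q-value within their own lists, the best Cnot1 peaks stood at percentiles 22.3 to 64.2.

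Cnot6 and Cnot6l encode the CCR4-type deadenylases, of which CNOT6L is known as the form needed for timely RNA clearance in mouse oocytes. Their marks lay in different phases. Cnot6 had 0, 0, 1, 1, 0 and 2 peaks in the embryonic libraries and 0 in each maternal library. Marked in 3 libraries, it could not pass the test of marks, and its mean of 0.667 ± 0.816 embryonic against 0 maternal peaks (SD, n = 6 each) gave an exact permutation p of 0.182 (adjusted p = 0.325). Its repeated region, chromosome 11, 49678685-49679096, was found in both 8-cell libraries and the second blastocyst library with folds of 8.09, 9.63 and 6.13. That region lies 7393 bp inside the annotated 3' end and within the transcribed pseudogene Gm12191 (49678620 to 49679143), so 3 of the 4 Cnot6 peaks cannot be assigned to 1 gene. The fourth peak, 49711797-49711996 in the second blastocyst library, touches no other gene and ranked at percentile 1.81 of its list.

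Cnot6l had 0 peaks in all embryonic libraries and, in the maternal phase, 1 peak in each GV oocyte library and 0 in MII oocytes and zygotes. The 2 GV peaks overlapped, at chromosome 5, 96077201-96077521, 7028 bp inside the annotated 3' end of a gene of 93866 bp. Their folds were 2.54 and 2.34 and their percentiles 57.5 and 59.2. With 2 marked libraries neither phase test applies.

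Cnot7 and Cnot8 encode the CAF1-type deadenylases, the other catalytic pair of the complex. Cnot7 was marked in 5 of 6 embryonic and 6 of 6 maternal libraries. It had 1, 1, 1, 3, 1 and 0 peaks in the embryonic libraries against 2, 2, 1, 3, 1 and 2 in the maternal libraries, and the ranges overlapped. The means were 1.17 ± 0.983 embryonic and 1.83 ± 0.753 maternal peaks (SD, n = 6 each; exact permutation p = 0.346, adjusted p = 0.545).

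Cnot7 peaks lay at different places in different stages. The region 40515705-40515946 at the upper gene end of chromosome 8 (gene 40492538 to 40515847) carried a peak in both 2-cell libraries, in no 8-cell or blastocyst library, and in all 6 maternal libraries. Its folds were 8.29 and 5.94 in the 2-cell libraries, against 6.82 and 8.48 in GV oocytes, 17.9 and 22.7 in MII oocytes and 26.9 and 28.7 in zygotes. The 8 summits fell within 13 bp of each other, 21 to 34 bp from the gene end. The strand of Cnot7 was not in the tables used, so this end is not named as 5' or 3'. The 8-cell and blastocyst peaks lay elsewhere, at 40492822-40493191 near the lower gene end in both 8-cell libraries and the second MII library, at 40507521-40507747 in the second 8-cell and first blastocyst library, and at 40500851-40501053 in the second 8-cell library. A further region, 40512554-40512926, had a peak in no embryonic library and in 3 maternal libraries, both GV oocyte libraries and the second zygote library. The region 40510133-40510356 was found in the second MII library, where it was the best-ranked Cnot7 peak, at percentile 89.3. The upper region and 40512554-40512926 also lie in Vps37a (40511742 to 40551134), a protein-coding gene of endosomal sorting, as do 11 of the 18 Cnot7 peaks in 8 libraries. Counting only peaks that touch no other gene, an alternative added after the data were seen, Cnot7 was marked in 3 embryonic and 1 maternal libraries, which turns the direction of its difference. Marked in 8 libraries, 2 embryonic and 6 maternal, the upper region was too common for the test to pass. With only peaks of a score no lower than the overall median, it was found in 0 embryonic and 6 maternal libraries and passed (Fisher's exact test, adjusted p = 0.00953). That limit is shared by all libraries, while the median −log10 q-value of a list was 10.7 to 18.0 in embryonic and 20.4 to 33.3 in maternal libraries. Under it, 217 regions were called higher and 947 lower in the embryonic phase of 2153 testable, against 610 and 1143 of 3549 without it. With all lists cut to equal length it was found in 1 and 6 (Fisher's exact test, adjusted p = 0.0288), and leaving out single libraries gave 0.0323 to 0.109 where it could be tested.

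Cnot8 had 0, 0, 1, 0, 1 and 0 peaks in the embryonic libraries and 0, 0, 1, 0, 0 and 1 in the maternal libraries (exact permutation p = 1). Its 4 peaks lay in 4 regions of chromosome 11, with none repeated: 58099525-58099852 and 58117263-58117557 in the embryonic phase, 58109384-58109606 and 58103938-58104141 in the maternal phase. The zygote peak at 58103938-58104141 overlaps the windows of 3 annotated alternative starts, at 58103970, 58104229 and 58104309. Folds were 3.65 to 4.50.

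Btg4, Tob1 and Tob2 encode BTG/TOB-family adaptors that bind the CAF1-type subunits, and BTG4 is known to be needed for maternal RNA decay in mouse oocytes. Btg4 had no peak in any embryonic library and 1, 1, 0, 0, 1 and 0 peaks in the maternal libraries (exact permutation p = 0.182, adjusted p = 0.325). Both GV peaks overlapped at chromosome 9, 51119170-51119440, 619 bp inside the annotated 3' end, with folds of 1.89 and 1.22. Their ranks differed between the replicates, at percentiles 90.5 and 22.7. The peak of the first zygote library was elsewhere, at 51116362-51116561, with a fold of 3.10 and at percentile 81.7 of its list.

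Tob1 had 1, 1, 1, 1, 1 and 0 peaks in the embryonic libraries and 1, 1, 0, 0, 0 and 0 in the maternal libraries. It was marked in both GV libraries, in no MII or zygote library, and in 5 of 6 libraries from the 2-cell stage on. The 5 embryonic against 2 maternal marks did not pass (Fisher's exact test, p = 0.242, adjusted p = 0.339), nor did the means of 0.833 ± 0.408 and 0.33 ± 0.516 peaks (SD, n = 6 each; exact permutation p = 0.242, adjusted p = 0.401). All 7 Tob1 peaks shared the region 94213498-94214011 on chromosome 11, 1741 bp inside the annotated 3' end. Within it the summits fell into 2 places, at 94213602 to 94213693 and at 94213848 to 94213864. GV and 2-cell libraries and the second 8-cell library had both, the first 8-cell library had the lower one, and the first blastocyst library the upper one.

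**Figure D2:**
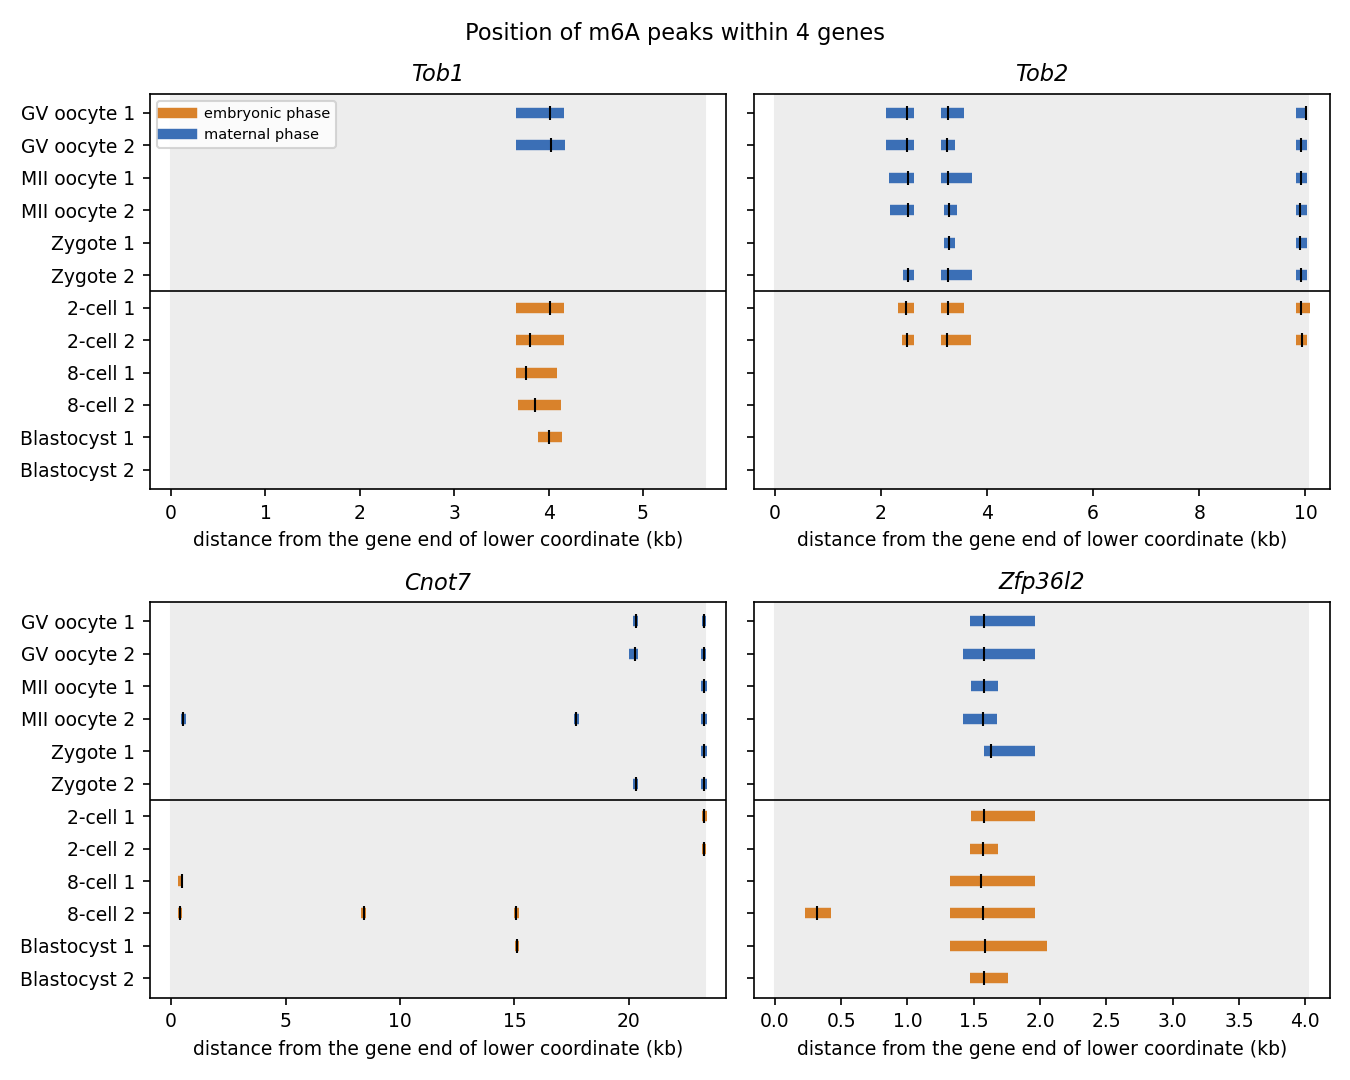
Position of every peak of Tob1, Tob2, Cnot7 and Zfp36l2 (bars) with its best summit (black tick) in each library, in kb from the gene end of lower coordinate; grey marks the gene body and the horizontal line parts maternal (above) from embryonic libraries. Tob2 peaks sit at 3 places up to the 2-cell stage and at none later. Zfp36l2 has a peak at 1 shared place in 11 libraries and a further peak elsewhere in the second 8-cell library.

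Tob2 had more peaks than any other member, 23 over 8 libraries. It had 3, 3, 0, 0, 0 and 0 peaks in the embryonic libraries and 3, 3, 3, 3, 2 and 3 in the maternal libraries. The 2-cell libraries lay with the oocytes and zygotes, while 8-cell and blastocyst libraries had none. Averages were 1.00 ± 1.55 embryonic and 2.83 ± 0.408 maternal peaks (SD, n = 6 each), a difference of -1.83 (exact permutation p = 0.0606, adjusted p = 0.163). Marked in 2 embryonic and 6 maternal libraries, Tob2 could not reach an unadjusted 0.05 in the test of marks. Leaving out either 2-cell library made it testable, and it then passed (Fisher's exact test, adjusted p = 0.0305 without the first and 0.0315 without the second). Both 2-cell libraries mark Tob2, so leaving 1 out removes an embryonic mark. Without the first, 815 genes were called higher and 909 lower in the embryonic phase of 3468 testable. Without the second they were 769 and 901 of 3475. Without single oocyte or zygote libraries the adjusted p of Tob2 was 0.100 to 0.108 (Fisher's exact test). The gene lies at chromosome 15, 81848270 to 81858326, on the minus strand.

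Tob2 peaks formed 3 regions. The one at 81858088-81858362 had folds of 2.54 to 7.99 in 8 libraries. Of its 8 peaks, 1 covers all 30 bases shown above and the others at least 19 of them. The middle one, 81851393-81851985, was found in the same 8 libraries with folds of 3.33 to 5.32, and in the first MII library it ranked at percentile 96.6. The one nearest the 3' end, 81850360-81850901, was found in 2 embryonic and 5 maternal libraries, with the first zygote library missing (Fisher's exact test, p = 0.242, adjusted p = 0.343). Over all regions, 17.2% of 3549 testable regions were called higher and 32.2% lower in the embryonic phase, and of the members' 31 regions 2 were testable, this one and that of Tob1, and 0 were called. Neither testable region had an unadjusted p under 0.05. The best summits of the middle region by q-value spanned 39 bp over 8 libraries. The second zygote library had a further summit there, at 81851848.

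Zfp36l1 and Zfp36l2 encode zinc-finger proteins that bind AU-rich elements and recruit CCR4-NOT, and ZFP36L2 is known to act in mouse oocyte maturation. Zfp36l1 had peaks in 1 library, the first blastocyst library, where it had 3, at 80108675-80109000, 80109523-80109772 and 80112857-80113056 on chromosome 12. Their folds were 5.49, 6.66 and 5.11, and the last covers the sequence shown above. The second blastocyst library and the other 10 libraries had none.

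Zfp36l2 was marked in 6 of 6 embryonic and 5 of 6 maternal libraries, 11 in all, as was Cnot7; no other member had more than 8. It had 1, 1, 1, 2, 1 and 1 peaks in the embryonic libraries and 1, 1, 1, 1, 1 and 0 in the maternal libraries, averaging 1.17 ± 0.408 and 0.833 ± 0.408 (SD, n = 6 each; exact permutation p = 0.545, adjusted p = 0.749). The second 8-cell library had 1 of its peaks apart from the rest, at 84184151-84184350, with a fold of 3.37 and at percentile 19.2. All 11 marked libraries shared the region 84185243-84185975 on chromosome 17, and 10 of 11 best summits lay within 25 bp of 84185500. Its folds were 6.50 and 5.80 in 2-cell, 5.59 and 9.13 in 8-cell and 13.3 and 6.49 in blastocyst libraries, against 8.30 and 7.34 in GV oocytes, 5.88 and 4.45 in MII oocytes and 4.08 in the first zygote library. Its percentile ran from 40.3 to 97.8 in embryonic and from 4.62 to 80.1 in the marked maternal libraries. Ranks come from lists of different lengths, and a change in rank was not tested.

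**Figure D3:**
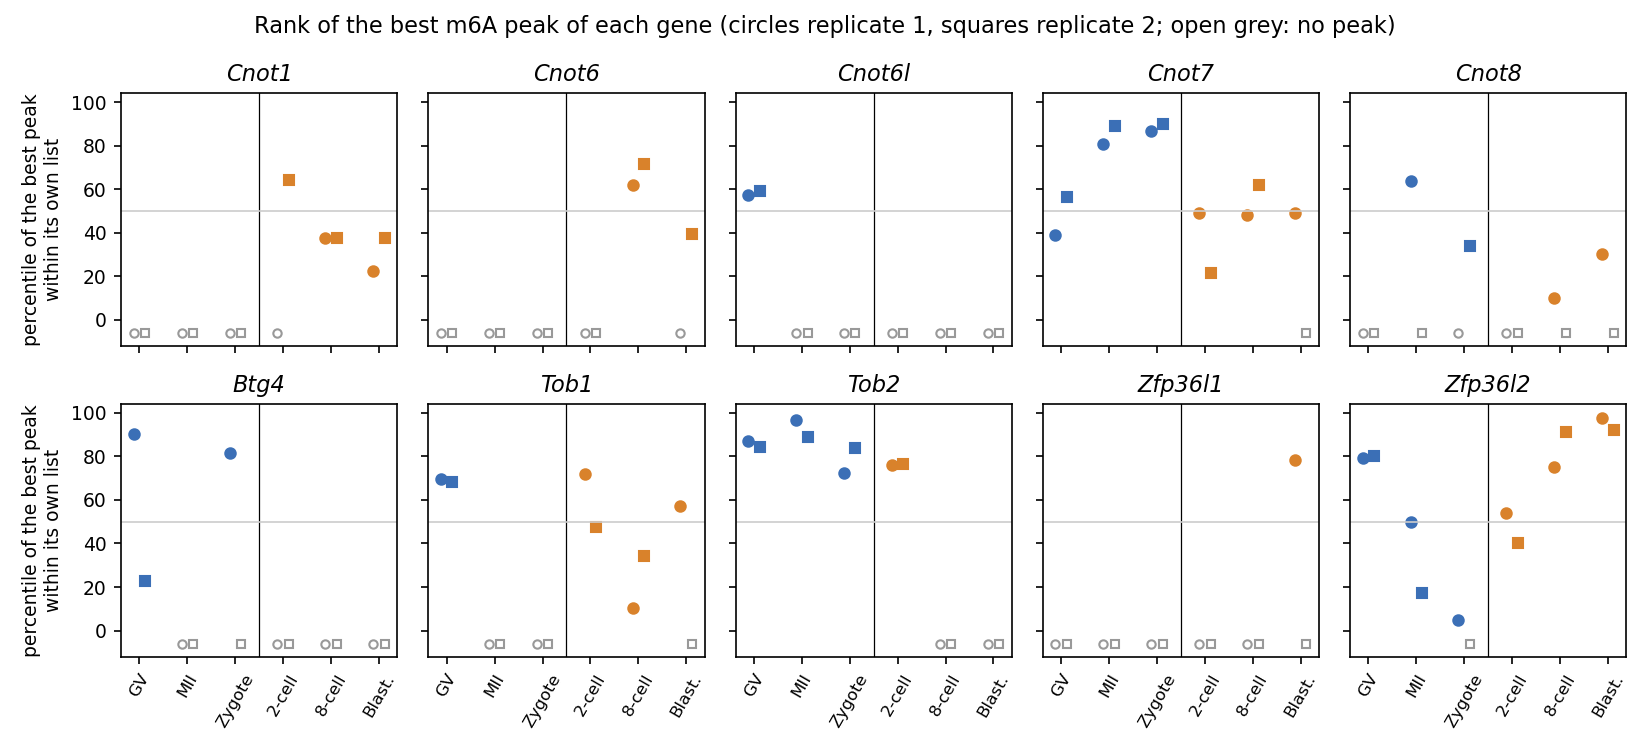
Percentile of the best peak by q-value of each gene within its own library's list (vertical axis), by stage; circles are replicate 1, squares replicate 2, open grey symbols below 0 mean no peak, and blue and orange mark the maternal and embryonic phase. The Zfp36l2 peak ranks at percentile 4.62 in the first zygote library and 97.8 in the first blastocyst library, and Tob2 has percentiles of 72.6 to 96.6 in the 8 libraries that mark it.

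Between consecutive stages, a gene was counted as gained where both libraries of the later stage and neither of the earlier marked it, and as lost in the reverse case. MII oocytes against GV oocytes lost 3 members (Btg4, Cnot6l and Tob1), where 8.74% of all marked genes were lost, and gained 0, where 3.33% were gained. Zygotes against MII oocytes gained and lost 0, with 0.666% and 2.53% over all genes. The 2-cell stage against zygotes gained Tob1 (9.88% over all genes) and lost 0 (7.94%). The 8-cell against the 2-cell stage gained Cnot6 (10.9%) and lost Tob2 (5.66%), and blastocysts against the 8-cell stage gained and lost 0 (4.79% and 4.29%). With 2 libraries against 2 an exact two-sided test cannot pass the threshold, and none was made. Members marked in both libraries numbered 6 at the GV stage, 3 at the MII stage, 2 at the zygote stage, 4 at the 2-cell stage, 5 at the 8-cell stage and 2 in blastocysts. Over all marked genes the share marked in both libraries was 45.9%, 35.8%, 28.1%, 28.4%, 39.7% and 37.3% in the same order of stages, lowest at the zygote stage as for the members, where blastocysts had equally few.

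By peak number, 8 members were marked in at least 3 libraries and tested, and 0 passed; Cnot1 had an unadjusted p under 0.05 in the exact permutation test. Over 6952 tested genes, 4.27% were called higher and 6.26% lower in the embryonic phase, and 26.0% had an unadjusted p under 0.05. The phases hold 3 stages each, and an exact permutation of whole stages cannot go below p = 0.1. Beyond that, the tests treat the libraries of a stage as independent. Of the 84 member peaks, 47 (56.0%) had their midpoint no more than 2000 bp from either gene end. Over all pairs of a peak and a protein-coding gene it overlaps, the share was 36.7%, and a peak over several genes counts once for each. Some members are short genes, and over the 7 members longer than 10000 bp the share was 25 of 62 (40.3%, against 28.9%). A site is counted once per library here, and peaks of 1 gene are not independent. The 25 include 8 peaks of the Cnot7 upper region, which also lies in Vps37a, and 8 of the Tob2 start region. These shares are descriptions and were not tested. Of the 31 member regions, 18 (58.1%) were seen in 1 library, against 35.6% of 22629 regions.

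**Figure D4:**
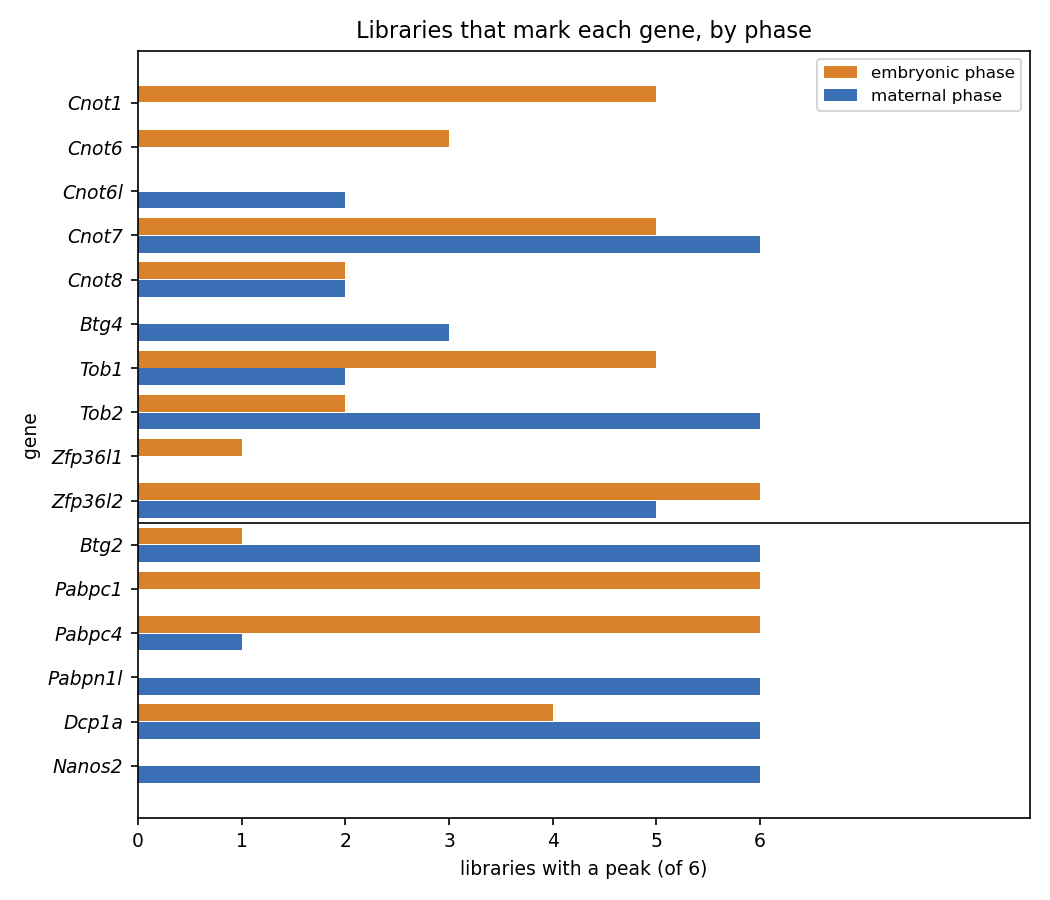
Number of the 6 embryonic-phase (orange, upper bar) and 6 maternal-phase (blue, lower bar) libraries that mark each member gene (above the horizontal line) and each gene of the wider pathway lists that passed a test (below it). Pabpc1 has 6 and 0, Nanos2 and Pabpn1l 0 and 6, and Cnot1 5 and 0 marked libraries.

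A wider set of 53 genes of tail shortening, tail binding, decapping and CCR4-NOT recruitment was examined beside the members. Marks were found in 42 of them and in all 12 libraries for 7 (Noct, Btg1, Pabpn1, Ddx6, Cpeb4, Ythdf2, Tnrc6c), and 11 had none. Of 10 testable by marks, 2 were higher and 3 lower in the embryonic phase, near the 21.6% and 28.0% over all genes. Of 29 tested by peak number, 1 was higher and 3 lower, near the 4.27% and 6.26% over all genes. The genes named next are therefore single descriptions, and nothing is read from their number. The median difference in marked libraries was 0, as over all genes. No call was made among the 6 other CCR4-NOT subunits, of which 3 were testable by marks and 4 by peak number. None was made among the 7 other deadenylases, of which 0 were testable by marks and 3 by peak number.

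Among poly(A)-binding proteins, Pabpc1, the main cytoplasmic one, was marked in 6 embryonic and 0 maternal libraries (Fisher's exact test, adjusted p = 0.00963), with 1 peak in each embryonic library. Pabpc1 has processed copies in the mouse genome, and how shared reads were placed is not given. Pabpc4 was marked in 6 and 1 libraries (Fisher's exact test, adjusted p = 0.0306). In peak number it missed the threshold (exact permutation test, adjusted p = 0.0723). Pabpn1l, an oocyte form of the nuclear poly(A)-binding protein, was marked in 0 embryonic and 6 maternal libraries (Fisher's exact test, adjusted p = 0.00963). Btg2, of the BTG/TOB family, was marked in 1 embryonic and 6 maternal libraries (Fisher's exact test, adjusted p = 0.0306). Its peak number also missed the threshold (exact permutation test, adjusted p = 0.0723). Nanos2, an RNA-binding recruiter, had no embryonic mark and exactly 2 peaks in each maternal library (Fisher's exact test, adjusted p = 0.00963). Dcp1a, a decapping cofactor, averaged 0.667 ± 0.516 embryonic and 2.33 ± 0.816 maternal peaks (SD, n = 6 each; exact permutation p = 0.00216, adjusted p = 0.0217), and 5 of its 18 peaks also touch Cacna1d.

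For the 7 members marked in 2 to 10 libraries, the genes most alike were sought by Pearson's r, over the 12 libraries, of the percentile of the best peak (0 where unmarked). Stk11 (0.978), Uqcc1 (0.977) and Eif3e (0.976) were nearest to Cnot1. Sptlc3, Bmp2k and Paqr3 (0.994 each) were nearest to Tob2, and 211 genes shared its exact marks. Cpt2 (0.950), Atf7 (0.946) and Sertad2 (0.937) were nearest to Tob1. Slc34a1 (0.953), Efl1 (0.925) and Foxp2 (0.865) were nearest to Btg4. Sms, Reep1 and Castor1 were nearest to Cnot6 and Oas1d, Klhl8 and Tspan18 to Cnot6l, all at 0.998 or above. These patterns rest on 3 and 2 marked libraries, and 35 and 184 genes shared those marks. Arhgef18 (0.965), Ccdc90b (0.963) and L3mbtl2 (0.944) were nearest to Cnot8. The points share libraries and list lengths, so these values are descriptions.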

How the data were processed

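m6A was measured by picoMeRIP-seq in 12 immunoprecipitated libraries, beside 12 inputs not analysed here. Per the submitters' processing notes, the build was mm10 and the tools included HISAT2 2.1.0 and MACS2 2.1.2, and FastQC 0.11.8, bedtools 2.28.0, SAMtools 1.9, cutadapt 1.8.1 and deepTools 3.2.0 are also named; parameters were not given in the sources used here. Each line of the deposited lists is a summit with the authors' score, the authors' fold enrichment (a ratio) and the authors' −log10 p-value and −log10 q-value, with the summit offset; the deposited peak names show that the authors called peaks per library. These values only rank, filter or describe peaks.

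Summits sharing an interval were collapsed to 1 peak (113764 in all). A gene was marked where a peak overlapped its body by at least 1 bp; bodies came from a RefSeq table of GRCm38.p6, the assembly of mm10, which gives no exons. All 10 symbols matched, and 7 have a strand in the RefSeq promoter table. Regions are unions of overlapping peaks. Marked libraries and regions were compared by two-sided Fisher's exact test, and peak numbers (genes marked in at least 3 libraries) by an exact permutation test over 924 splits, with Benjamini-Hochberg adjustment over all testable genes or regions at 0.05. Tests were checked on simulated data in which all libraries were drawn independently. The simulated data held no stages and no differences in list length, so the check does not cover these. Python 3.11.15, numpy 2.4.6 and pandas 2.3.3 were used.

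The members, the phases and all lists were chosen with earlier results of these data known. All 10 members are described; of the wider lists, genes called by a test are named and genes marked in all or no libraries are counted; for members marked in 2 to 10 libraries the 3 genes of highest correlation are named. Alternatives were midpoint overlap, extended gene ends, score, fold and list-length thresholds, summit or base-pair counts, leaving out each library, a replicate block, and, added after the data were seen, only peaks that touch no other gene. Replicates are labelled biological, in 2 pools per stage.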

Additional observations from a re-analysis of the deposited data

Results flagged for a closer look

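Peak numbers of the 10 members were examined in each phase for a library far from the others, and 6 of 20 groups of 6 libraries met the criterion of Dixon. Chance flags about 1 in 20 groups when values are continuous, and these are small whole numbers in which 5 equal values and 1 other always meet it. The second 8-cell library was the highest of the embryonic phase for Cnot7, with 3 peaks, and for Zfp36l2, with 2 peaks. The first blastocyst library was the highest of the embryonic phase for Zfp36l1, with 3 peaks, and the second blastocyst library the lowest for Tob1, with 0 peaks. In the maternal phase the first zygote library, whose list is the shortest (6914 peaks), was the lowest for Tob2, with 2 peaks. The second zygote library was the lowest for Zfp36l2, with 0 peaks.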

How the results depend on the processing

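Members called by marks numbered 1 (Cnot1), and 0 with the gene body extended by 2000 bp, the same number of peaks per library, only peaks no weaker than the library's median fold, or peaks that touch no other gene (added after the data were seen). Over all genes, 572 were called higher and 679 lower in the embryonic phase of 2571 (extended body), and 510 and 515 of 1943 (same number). The limit on fold gave 225 and 344 of 1614. Leaving out single libraries gave 1 to 2 (Tob2 joined without either 2-cell library). Without the first 2-cell library 815 genes were called higher and 909 lower of 3468. Without the second they were 769 and 901 of 3475. Cnot1 kept an adjusted p of 0.0110 to 0.0436 (Fisher's exact test) without any single library. With only scores no lower than the overall median the count was also 1, but of Cnot7 (1 embryonic and 6 maternal libraries), not Cnot1 (1 and 0); over all genes this limit called 190 higher and 712 lower in the embryonic phase of 1700, against 498 and 647 of 2310. Members called by peak number were 0, and 0 to 1 without single libraries (Cnot1, adjusted p = 0.0187 by exact permutation test without the first 2-cell library). Without that library 443 genes were called higher and 538 lower of 6791, against 297 and 435 of 6952. Regions called were 0, then 1 with the extended body (a region beyond the end of Cnot8), 2 with the score limit, 2 with the same number of peaks (the Cnot7 upper and Tob2 start regions each time), and 0 to 3 without single libraries (these and the middle Tob2 region, without either 2-cell library). Over all testable regions, 615 were called higher and 1188 lower of 3614 (extended body), 217 and 947 of 2153 (score) and 613 and 809 of 2704 (same number), against 610 and 1143 of 3549. Without the first 2-cell library 1166 were called higher and 1536 lower of 5752, and without the second 1040 and 1528 of 5701. Both 2-cell libraries have a peak in each member region called there, so leaving 1 out removes an embryonic library with a peak. Cnot7 reversed with only peaks that touch no other gene, to 2 in marked libraries and 0.5 in peak number. With the fold limit Tob2 was marked in 1 embryonic and 1 maternal library, and Btg4, Cnot6l and Cnot8 in 0 of either phase. All values for single genes or regions were also compared with those of the main setting. By marks 178, by peak number 205 and by region 226 stayed on the same side of the threshold or within the spread between libraries. Another 11, 3 and 8 moved further, and these include values given above.

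Replicate numbers did not pair the samples: deviations of same-numbered libraries correlated at -0.165 to 0.0249 between stages. With the replicate block, members called stayed 1 by marks, 0 by peak number and 0 by region, and Cnot1 had an adjusted p of 0.0366 by marks and 0.0943 by peak number (exact permutation within replicate numbers). Over all genes, the block called 498 higher and 647 lower in the embryonic phase of 2098 by marks. By peak number these were 297 and 424 of 6952 genes, and by region 610 and 1143 of 3232 regions. Read depth is unknown, so absence of a peak is not absence of m6A.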
